A study of Danio rerio with 10 samples.

Results

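The Hox genes of the zebrafish Hox clusters were measured in whole embryos at 48 hpf in which *islet2a*, a LIM homeodomain transcription factor gene of motor and sensory neurons, had been targeted. Members were all genes whose array annotation gave a single symbol naming a Hox gene by cluster letter, paralog number and copy. This rule found 43 Hox genes among 19260 genes with a symbol. They had 47 of the 75212 probe sets, and each gene was represented by its probe set with the highest mean over all 10 arrays. The zebrafish reference annotation names 49 protein-coding Hox genes, and the 6 others (*hoxb1b*, *hoxa3a*, *hoxa4a*, *hoxa9a*, *hoxc9a* and *hoxc10a*) were not analysed here. All 43 genes were tested without a filter on low signal.

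Morphants were wildtype embryos injected with a translation-blocking morpholino against *islet2a* (T-MO, 3 arrays). Mutants were homozygous for a TALEN-induced frameshift deletion in *islet2a* (3 arrays). Controls joined uninjected wildtype embryos (2 arrays) and wildtype siblings of the mutants (2 arrays). All embryos were 2 dpf, each array was hybridized with RNA from a pool of whole embryos, and no array held embryos injected with a control morpholino. The labels do not state that the pools were of separate clutches, so p-values measure the spread between these pools only.

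Hox genes encode homeodomain transcription factors that give cells along the head-to-tail axis their positional identity. They lie in clusters in which gene order matches the order of expression along the axis, so that genes of low paralog number act in the hindbrain and pharyngeal arches and genes of high paralog number act in the posterior trunk, tail and fins. In the hindbrain and spinal cord they help to set the identity of motor neurons. Here paralog groups 1 to 4 are called anterior (11 genes), 5 to 8 central (12 genes) and 9 to 13 posterior (20 genes).

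The *islet2a* transcript (*isl2a*) was read first as a check of the labels. Its log2 signal was 8.51 to 8.61 in controls, 9.79, 9.96 and 9.91 in morphants and 8.95, 9.12 and 9.13 in mutants. The 3 groups did not overlap, and the transcript rose by 1.32 on the log2 scale in morphants (limma, adjusted p = 5.18e-05). In mutants the difference was 0.50 (limma, adjusted p = 0.0474). The call in morphants was kept with all 23 alternatives. That in mutants was lost with 15 of 23 (adjusted p up to 0.257), among them the 2-group test of the methods, either wildtype alone as control and 9 of the 10 arrays left out in turn (all but mutant array 1). Neither a block of translation nor a frameshift has to lower the transcript, so this level does not check the loss of protein. Arrays of the same group correlated with Pearson's r of 0.983 to 0.992 over probe sets and arrays of different groups with 0.972 to 0.988. No measured marker of skeletal muscle, neurons, neural crest or pectoral fin bud was below the median of every array, and 7 of 8 measured tail bud markers were below the median of every array.

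No Hox gene changed 2-fold in any comparison, and the changes that passed the test were between 1.31-fold and 1.80-fold. A gene was called changed where limma gave an adjusted p below 0.05, adjusted over all 75212 probe sets, together with a difference of 2-fold or more. In morphants against controls 0 of 43 Hox genes met this rule, where 0.818% of all probe sets did. In mutants against controls 0 of 43 met it, where 0.164% of all probe sets did. In morphants against mutants 0 of 43 met it, where 2.52% of all probe sets did. The 2-group test named in the methods also gave 0 in all 3 comparisons. Unadjusted p-values below 0.05 were found in limma for 8, 8 and 13 Hox genes in these comparisons, and for 19.0%, 13.4% and 27.9% of all probe sets. The 95% interval of the difference stayed within 2-fold for 43 of 43 genes in morphants against controls, for 43 of 43 in mutants against controls and for 42 of 43 in morphants against mutants. The exception was *hoxb1a*, with an interval of 0.55 to 1.15 on the log2 scale between morphants and mutants.

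At the adjusted p alone, 1 Hox gene fell in morphants against controls (*hoxd3a*), where 5.17% of all probe sets and 9.61% of probe sets with 1 symbol passed and 1.57% of all probe sets passed as lower. No Hox gene passed in mutants against controls, where 0.338% of all probe sets and 0.317% of those with 1 symbol passed. In morphants against mutants, 6 Hox genes passed, which is 14.0% of the members against 13.6% of all probe sets and 22.6% of those with 1 symbol. Of these 6, *hoxb1a* and *hoxb7a* were higher in morphants, and *hoxd3a*, *hoxb5a*, *hoxc8a* and *hoxd9a* were lower, where 7.50% of all probe sets passed as higher and 6.11% as lower. With the 2-group test of the methods, only *hoxc8a* of these 6 passed, and the adjusted p-values of the others were 0.0516 to 0.171. With limma on the arrays of morphants and mutants alone, *hoxb7a* (adjusted p = 0.0643) and *hoxd9a* (adjusted p = 0.0799) did not pass. The share of Hox genes that passed was near or below that of the array as a whole. The comparisons of morphants and of mutants with controls share the 4 control arrays, and their values are given side by side.

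**Figure D1:**
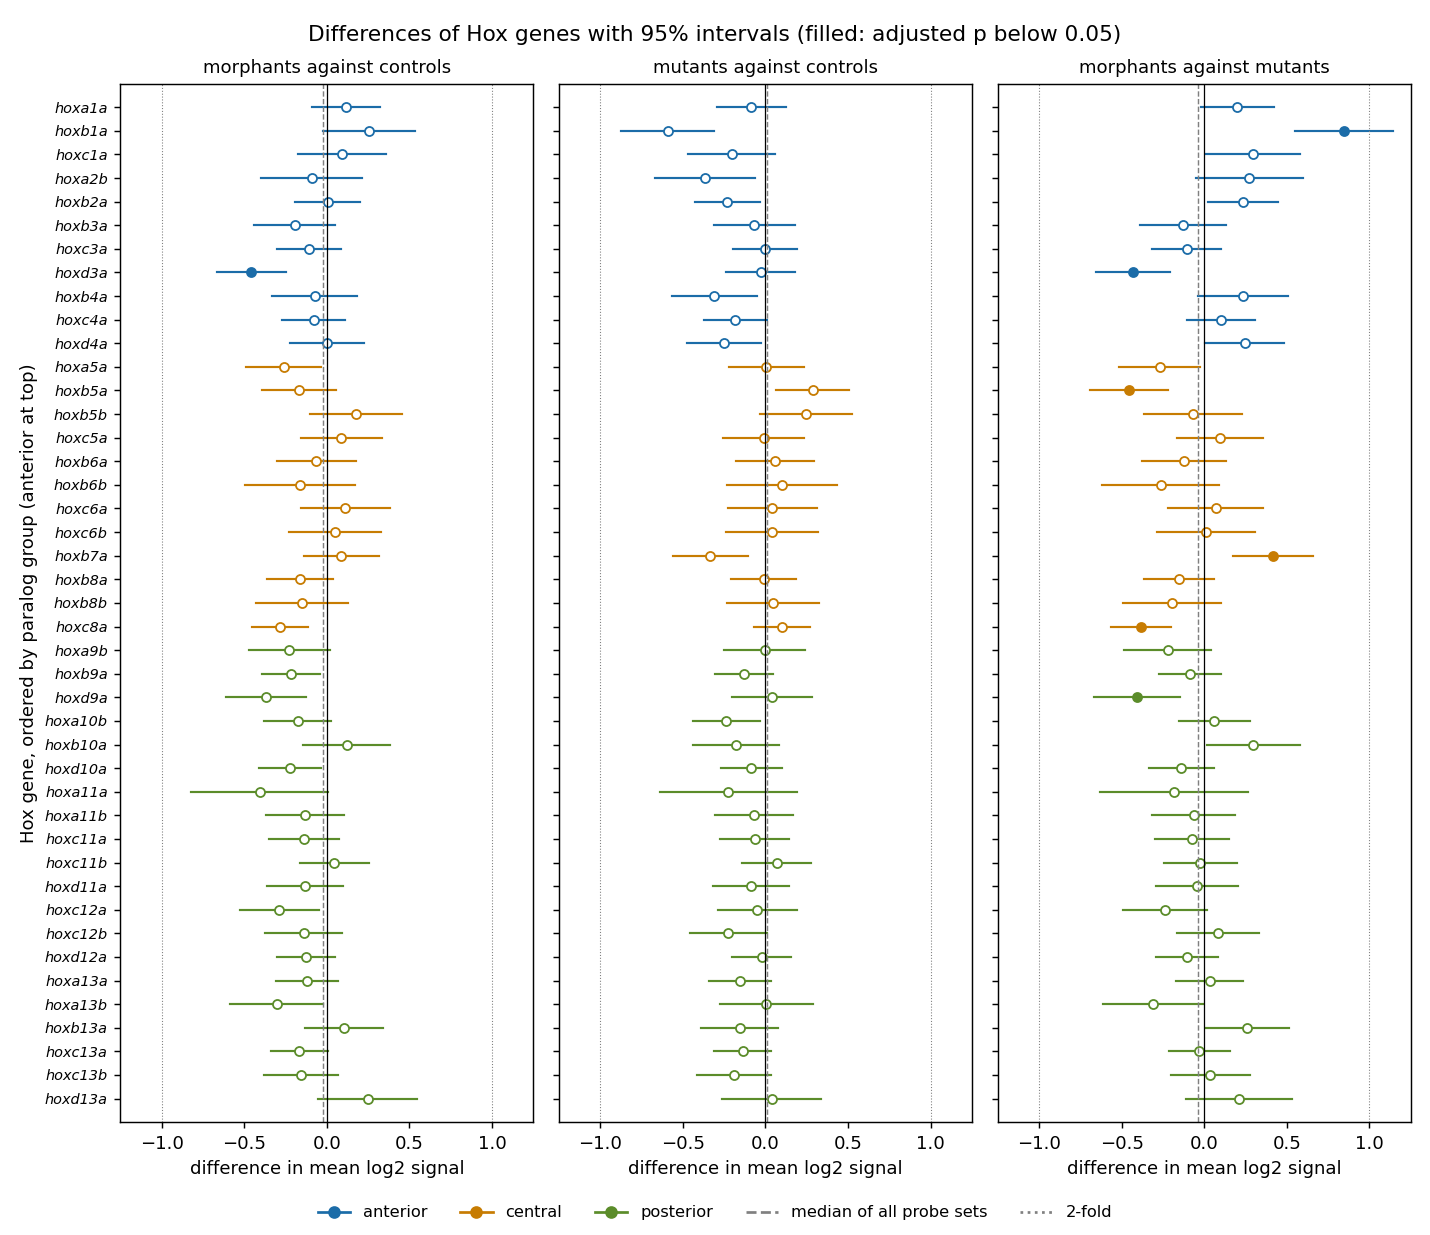
Difference in mean log2 signal (x axis) of the 43 Hox genes (y axis, paralog group 1 at the top) in morphants against controls, mutants against controls and morphants against mutants, with 95% intervals from limma. Filled points have an adjusted p below 0.05 (1, 0 and 6 genes), dotted lines mark a 2-fold change, and *hoxb1a* lies farthest from 0 in the panels that contain mutants.

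Among anterior genes, *hoxb1a* had the largest differences in the comparisons with mutants, and *hoxd3a* in morphants against controls. *hoxb1a* gives the hindbrain segment from which facial motor neurons arise its identity. Its log2 signal was 5.30 and 5.54 in uninjected wildtype, 5.18 and 5.56 in siblings, 4.94, 4.58 and 4.89 in mutants, and 5.72, 5.55 and 5.68 in morphants. All mutant arrays lay below all other arrays, and the morphant arrays overlapped the upper part of the controls. The group means were 5.40 ± 0.19 (SD, n = 4) in controls, 4.80 ± 0.19 (n = 3) in mutants and 5.65 ± 0.09 (n = 3) in morphants. *hoxb1a* was 1.80-fold higher in morphants than in mutants (log2 difference 0.85, SE 0.13, limma adjusted p = 0.00347). The difference of mutants from controls was -0.59 (SE 0.13) and did not pass over all probe sets (limma adjusted p = 0.0878), although it passed when only probe sets with 1 symbol were adjusted for (limma adjusted p = 0.0340). In morphants against controls it was 0.25 (limma adjusted p = 0.312). The call between morphants and mutants was kept with every array left out in turn, and the 2-group test of the methods gave an adjusted p of 0.0551.

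The other genes of paralog group 1 differed less. *hoxa1a* and *hoxc1a* had differences of 0.12 and 0.09 in morphants against controls and of -0.08 and -0.21 in mutants against controls. Their differences between morphants and mutants were 0.20 and 0.30, neither of which passed the test. *hoxa1a* did not overlap between morphants and mutants, and *hoxc1a* did.

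In paralog group 2, *hoxa2b* and *hoxb2a* pattern the second pharyngeal arch and the anterior hindbrain. The log2 signal of *hoxa2b* was 5.43 and 6.04 in uninjected wildtype, 5.69 and 5.94 in siblings, 5.36, 5.37 and 5.49 in mutants, and 5.78, 5.60 and 5.67 in morphants. Mutant arrays were low and close together, but uninjected array 1 lay among them, and the controls alone spanned more than the distance between the groups. The difference of mutants from controls was -0.37 (SE 0.14, limma adjusted p = 0.276). *hoxb2a* was lower in all mutant arrays than in all control arrays, by -0.23 (SE 0.09, limma adjusted p = 0.290), and differed by 0.00 in morphants.

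Paralog group 3 contained the single Hox gene that passed against controls. Hox genes of this group are expressed in the posterior hindbrain. For *hoxd3a* the log2 signal was 8.02 and 7.86 in uninjected wildtype, 8.09 and 7.80 in siblings, 7.90, 7.83 and 8.01 in mutants, and 7.43, 7.50 and 7.52 in morphants. All 3 morphant arrays were below all 7 others, and mutants lay within the range of controls. *hoxd3a* was 1.37-fold lower in morphants than in controls (log2 difference -0.46, SE 0.09, limma adjusted p = 0.0207) and 1.35-fold lower than in mutants (-0.43, SE 0.10, limma adjusted p = 0.0194), while mutants differed from controls by -0.03 (limma adjusted p = 0.935).

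A further probe set of *hoxd3a* had differences of -0.60 in morphants against controls (limma adjusted p = 0.0501) and -0.51 in morphants against mutants (limma adjusted p = 0.0632). The gene models of *hoxd3a* and *hoxd4a* overlap in the reference annotation, and *hoxd4a* differed by -0.00 in morphants against controls. Those of *hoxb5a* and *hoxb3a* overlap too, as do those of *hoxc8a* and *hoxc3a*. Whether overlapping models share signal was not tested. *hoxb3a* and *hoxc3a* had differences of -0.19 and -0.11 in morphants and of -0.07 and -0.00 in mutants, with no call. The *hoxd3a* call against controls was lost without uninjected array 1 and without each morphant array in turn, with limma adjusted p-values of 0.0549 to 0.0926 and differences of -0.43 to -0.48. It was also lost with uninjected wildtype or siblings alone as control (limma adjusted p = 0.0769 and 0.0767), and the 2-group test of the methods gave an adjusted p of 0.0924. The call against mutants was lost without morphant array 1 (limma adjusted p = 0.0706) and without mutant array 3 (limma adjusted p = 0.0736).

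All 3 genes of paralog group 4, which act at the junction of hindbrain and spinal cord, had negative differences in mutants against controls. They were -0.31 for *hoxb4a*, -0.18 for *hoxc4a* and -0.25 for *hoxd4a*. *hoxc4a* and *hoxd4a* were lower on every mutant array than on every control array, as were 5.65% of all probe sets. None of the 3 passed the test. In morphants against controls the 3 differences were between -0.08 and -0.00.

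**Figure D2:**
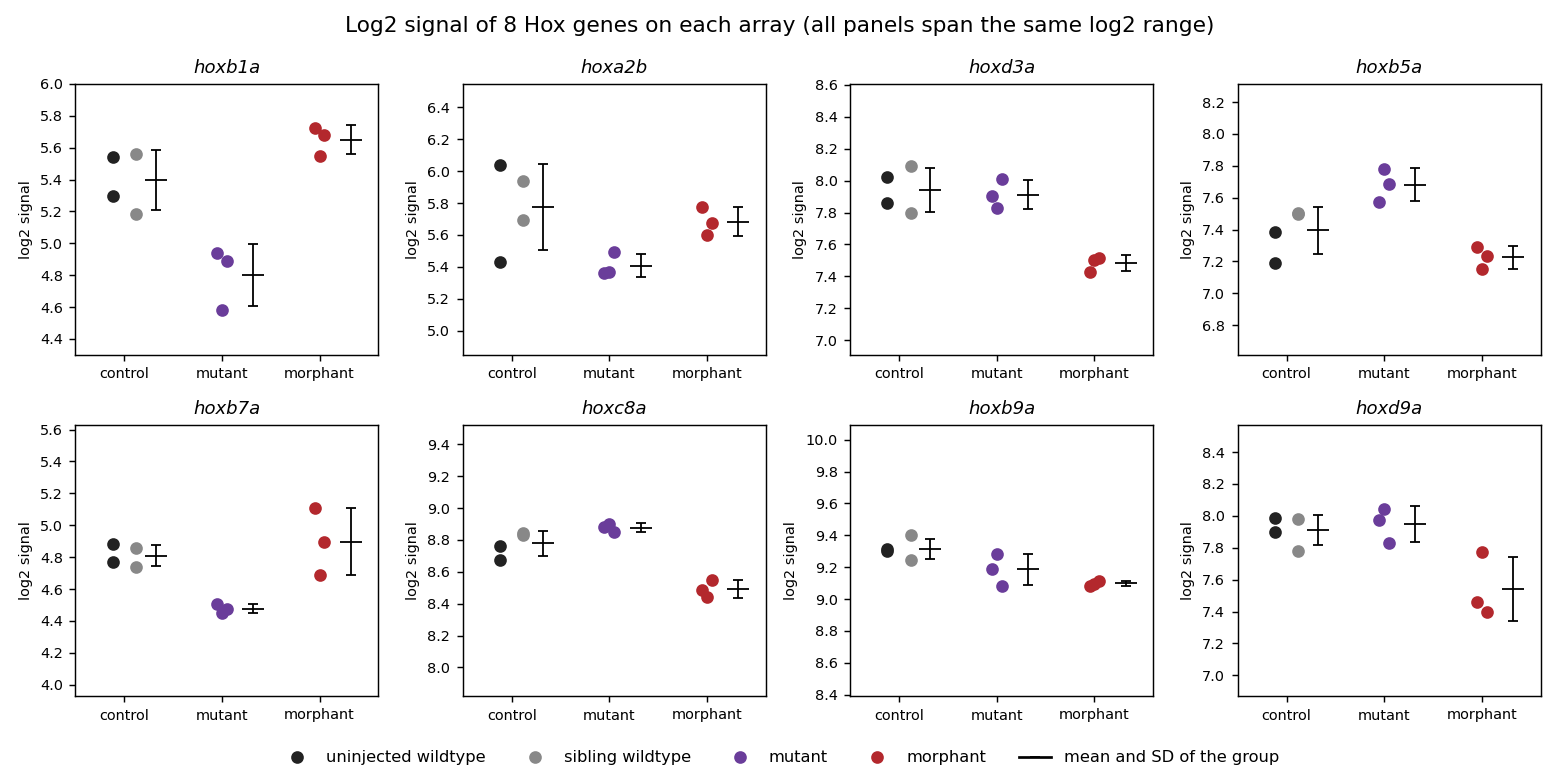
Log2 signal (y axis) of the 8 named Hox genes on each of the 10 arrays, in controls, mutants and morphants (x axis). Points are arrays, horizontal bars with error bars are group means with SD, and all panels span the same log2 range. Mutant arrays are lowest for *hoxb1a* and *hoxb7a*, and morphant arrays are lowest for *hoxd3a*, *hoxc8a* and *hoxd9a*.

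Among central genes, *hoxb5a* and *hoxb7a* lay on opposite sides of the controls in mutants. Both lie in the same cluster and are expressed in the posterior hindbrain, spinal cord and trunk mesoderm. The signal of *hoxb5a* was 7.19 and 7.39 in uninjected wildtype, 7.50 and 7.51 in siblings, 7.57, 7.78 and 7.69 in mutants, and 7.29, 7.15 and 7.24 in morphants. Mutants were above all other arrays, and morphants overlapped uninjected wildtype but not siblings. *hoxb5a* was 1.37-fold lower in morphants than in mutants (log2 difference -0.45, SE 0.11, limma adjusted p = 0.0201). Its difference from controls was 0.29 in mutants (limma adjusted p = 0.249) and -0.17 in morphants (limma adjusted p = 0.412). The call was lost without morphant array 2 or 3 or mutant array 2 or 3, with limma adjusted p-values of 0.0530 to 0.0770 and differences of -0.40 to -0.46.

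Its duplicate *hoxb5b* had differences of 0.24 in mutants and 0.18 in morphants, and of -0.07 between them. For *hoxb7a*, signals were 4.77 and 4.88 in uninjected wildtype, 4.74 and 4.85 in siblings, 4.51, 4.45 and 4.47 in mutants, and 5.11, 4.69 and 4.89 in morphants. Mutants were below all other arrays and close together, and morphants spread on both sides of the controls. *hoxb7a* was 1.34-fold higher in morphants than in mutants (0.42, SE 0.11, limma adjusted p = 0.0301), and mutants differed from controls by -0.33 (limma adjusted p = 0.198). This signal lay close to the array medians of 4.92 to 4.96. The call was lost without morphant array 1 or 3 or any mutant array, with limma adjusted p-values of 0.0593 to 0.101 and differences of 0.31 to 0.43, and with the replicate number as a block (limma adjusted p = 0.0594).

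In paralog group 8, *hoxc8a* is a marker of trunk level, and its counterpart in mouse and chick helps to set motor neuron pools of the forelimb region. Its signal was 8.76 and 8.68 in uninjected wildtype, 8.83 and 8.85 in siblings, 8.88, 8.90 and 8.85 in mutants, and 8.49, 8.44 and 8.55 in morphants. Morphants were below all other arrays, and mutants were only just above the siblings. *hoxc8a* was 1.31-fold lower in morphants than in mutants (-0.38, SE 0.08, limma adjusted p = 0.0129). Against controls the difference was -0.29 (SE 0.08) and missed the threshold (limma adjusted p = 0.0626), and it was 0.10 in mutants (limma adjusted p = 0.633). It passed against controls without dim probe sets and with 1 symbol only (limma adjusted p = 0.0339 and 0.0262), and with repeated quantile normalization and a trended prior (limma adjusted p = 0.0386 and 0.0382). A dimmer probe set of the same gene had a difference of -0.18 between morphants and mutants (limma adjusted p = 0.341), and the mean of both probe sets did not pass (limma adjusted p = 0.0577). *hoxb8a* and *hoxb8b* had differences of -0.16 and -0.15 in morphants against controls, without a call.

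Paralog groups 5 and 6 otherwise stayed close to controls. *hoxa5a* had a difference of -0.26 in morphants and 0.01 in mutants, and *hoxc5a* of 0.09 and -0.01. The 4 genes of paralog group 6 had differences of -0.16 to 0.11 in morphants and of 0.04 to 0.10 in mutants. None of them passed the test or separated from controls on all arrays.

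Most posterior genes had small negative differences in both groups. In paralog group 9, whose members mark the trunk and are also expressed in fin buds, all 3 genes were lower on every morphant array than on every control array. This held for 8.59% of all probe sets. *hoxd9a* had signals of 7.98 and 7.90 in uninjected wildtype, 7.98 and 7.78 in siblings, 7.98, 8.05 and 7.83 in mutants, and 7.46, 7.77 and 7.40 in morphants. Morphants were below all others, with morphant array 2 only just below sibling array 2. *hoxd9a* was 1.33-fold lower in morphants than in mutants (-0.41, SE 0.12, limma adjusted p = 0.0456). Against controls its difference was -0.37 (SE 0.11, limma adjusted p = 0.0912), and it passed without morphant array 2 (-0.48, limma adjusted p = 0.0406). It also passed without dim probe sets, with 1 symbol only and with array weights (limma adjusted p = 0.0499, 0.0337 and 0.0372). Its call against mutants was lost under more alternatives than that of the other 5 genes. It was lost without uninjected array 1 or 2, sibling array 1, morphant array 1 or 3 or any mutant array, with limma adjusted p-values of 0.0574 to 0.145 and differences of -0.33 to -0.47, and with the replicate number as a block (limma adjusted p = 0.0549).

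The spread of *hoxb9a* was small. Its signals were 9.30 and 9.31 in uninjected wildtype, 9.40 and 9.24 in siblings, 9.19, 9.28 and 9.08 in mutants, and 9.08, 9.10 and 9.11 in morphants. Morphants were below all controls, and mutants overlapped both. The difference of morphants from controls was -0.22 (SE 0.08, limma adjusted p = 0.167) and that of mutants -0.13 (limma adjusted p = 0.537). *hoxa9b* differed by -0.23 in morphants and by -0.01 in mutants.

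In paralog groups 10 to 13, no gene passed in any comparison. Groups 10 and 11 are known from mouse for the identity of lumbar and sacral levels, and *hoxa13* and *hoxd13* genes for the distal fin. Differences of morphants from controls ran from -0.41 for *hoxa11a*, whose controls alone ranged from 5.35 to 6.08, to 0.25 for *hoxd13a*. *hoxd10a*, *hoxc11a*, *hoxc12a*, *hoxd12a*, *hoxa13b* and *hoxc13a* were lower on every morphant array than on every control array, and *hoxd13a* was higher. Of all probe sets 8.59% were lower and 9.18% higher in this way. *hoxa10b* and *hoxc13a* were lower on every mutant array than on every control array, as were 5.65% of all probe sets. Their differences were -0.24 and -0.14. Signals of *hoxa13a*, *hoxb13a* and *hoxd13a* were below the median of every array, and small differences in them may not be measurable at this brightness. Those of *hoxd12a* (4.82 to 5.07) lay close to the array medians.

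**Figure D3:**
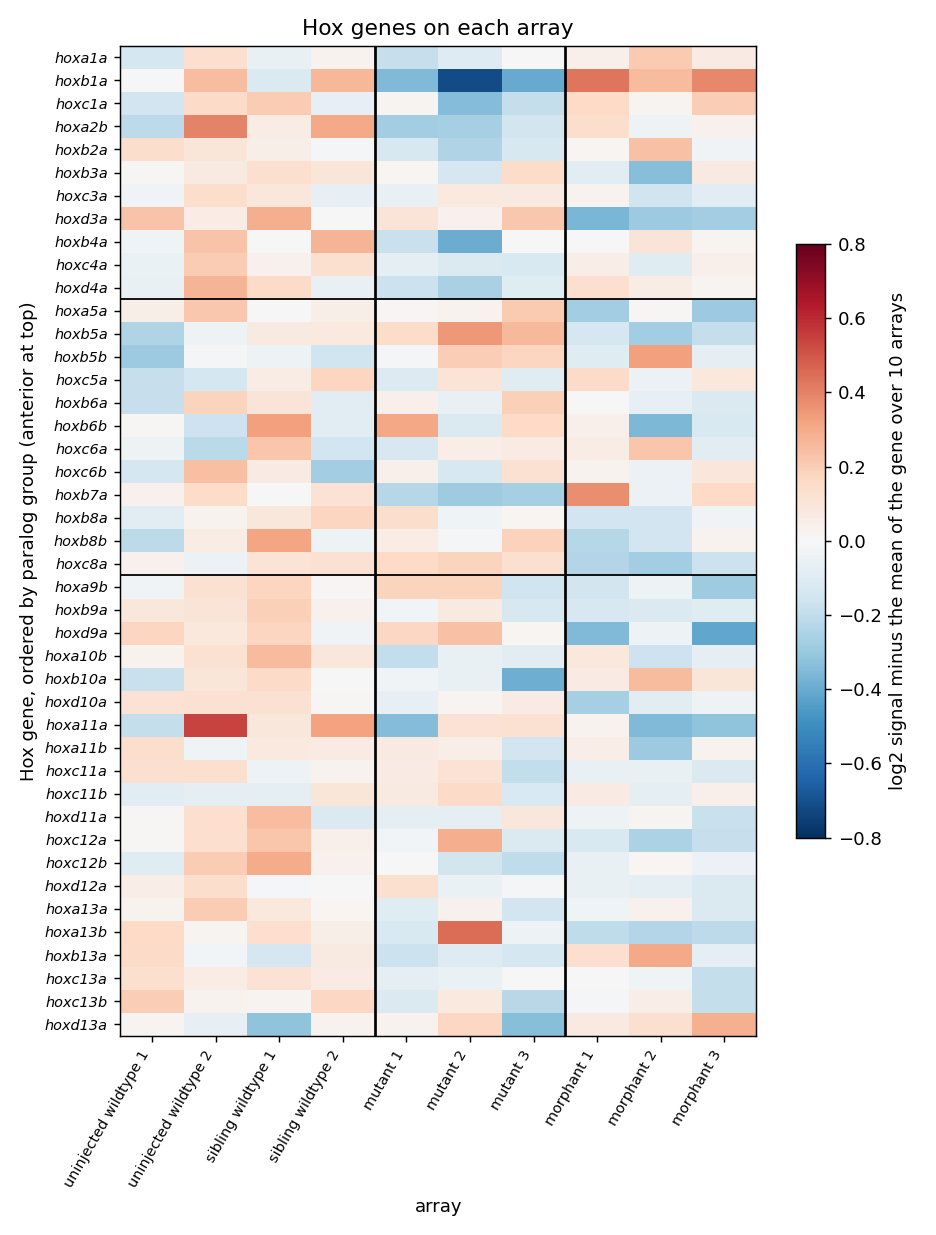
Log2 signal of the 43 Hox genes (rows, paralog group 1 at the top) on each of the 10 arrays (columns), shown as the difference from the mean of the gene over all arrays. Horizontal lines separate anterior, central and posterior genes and vertical lines the 3 groups. Low values of mutants gather among anterior genes. In morphants the mean of the centred values was -0.070 for posterior genes, -0.058 for central genes and 0.029 for anterior genes.

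The differences of the classes are described without a test, because genes of a family on the same arrays are not replicates. In morphants against controls, 30 of 43 genes had a negative difference, with a median of -0.13 against -0.02 over all probe sets. The median was -0.07 for anterior, -0.11 for central and -0.15 for posterior genes, and 16 of 20 posterior genes were negative. Of all members, 11 (25.6%) lay below the controls without overlap and 1 (2.33%) above, where 8.59% and 9.18% of all probe sets did. Posterior genes made up 9 of these 11. All shares without overlap given here are over all probe sets, and those among probe sets with 1 symbol are not given. At the adjusted p in this comparison, probe sets with 1 symbol passed more often than all probe sets (9.61% against 5.17%). The shares over all probe sets are therefore not a matched background for the Hox genes. A positive difference was found for 44.7% of all probe sets.

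In mutants against controls, 30 of 43 genes were again negative, with a median of -0.07 against 0.01 over all probe sets, of which 52.5% were positive. All 11 anterior genes were negative, with a median of -0.21. Central genes had a median of 0.04 with 9 of 12 positive, and posterior genes a median of -0.09 with 16 of 20 negative. Below the controls without overlap lay 7 members (16.3%) and above them 2 (4.65%), where 5.65% and 6.43% of all probe sets did.

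In morphants against mutants, 8 of 11 anterior genes were positive with a median of 0.24, and the 3 exceptions were the genes of paralog group 3. Central genes had a median of -0.14 and posterior genes of -0.05. Over all members the median was -0.04 with 19 of 43 positive, against -0.04 and 43.5% positive over all probe sets. Groups did not overlap for 9 members higher in morphants (20.9%) and 7 lower (16.3%), where 16.4% and 18.9% of all probe sets did. The 8 genes of paralog groups 1, 2 and 4, a set chosen after the values were seen, were all negative in mutants against controls (median -0.24) and all positive in morphants against mutants (median 0.24). The set leaves out the 3 exceptions, so its signs between morphants and mutants follow from the choice. Both comparisons also share the 3 mutant arrays.

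On single arrays, the mean of the anterior genes, each centred on its own mean, was -0.22 to -0.06 in mutants and -0.03 to 0.18 in controls. Morphants lay between -0.00 and 0.05. For posterior genes the mean was 0.04 to 0.10 in controls, -0.11 to -0.05 in morphants and -0.11 to 0.07 in mutants. Mutants thus separated from controls in the anterior mean and morphants in the posterior mean, by less than 0.1 on the log2 scale between the nearest arrays. For anterior genes these were mutant array 3 at -0.059 and uninjected array 1 at -0.027. For posterior genes they were morphant array 1 at -0.049 and uninjected array 1 at 0.042. Central genes did not separate either group from controls. The mean over all 43 genes lay just below the controls (-0.017 to 0.10) in both groups, at -0.058 to -0.022 in morphants and -0.039 to -0.018 in mutants. The nearest arrays were uninjected array 1 at -0.0167, mutant array 2 at -0.0180 and morphant array 1 at -0.0215. These gaps, and that of the anterior mean between mutants and controls, are smaller than the span of the array medians (4.92 to 4.96).

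**Figure D4:**
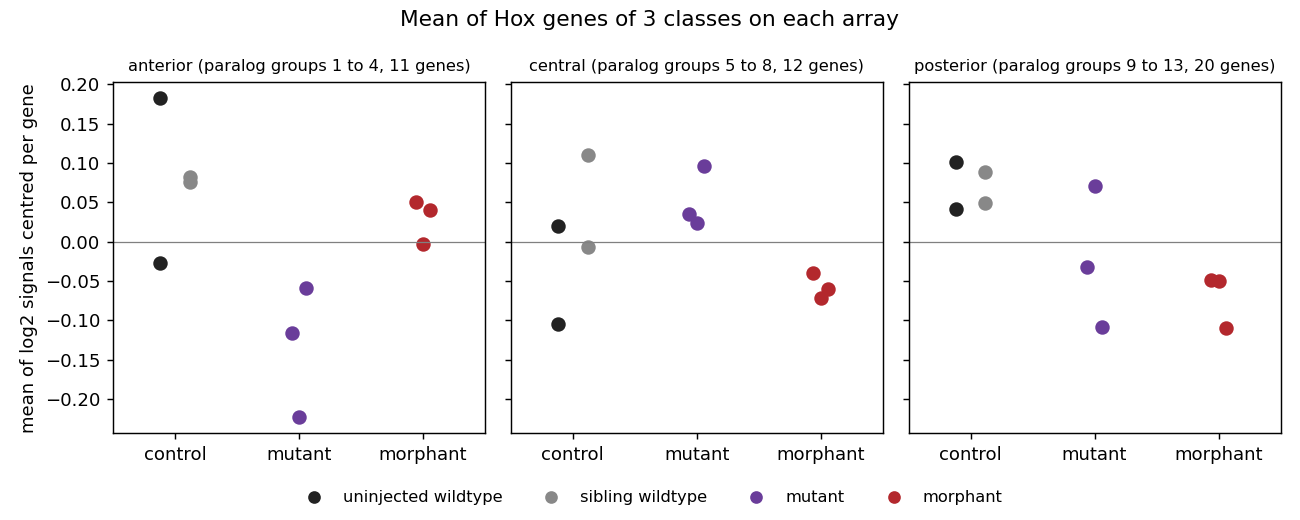
Mean over the genes of a class of log2 signals centred per gene (y axis) on each of the 10 arrays, for anterior, central and posterior Hox genes. Each point is 1 array. All 3 mutant arrays lie below the 4 control arrays for anterior genes, and all 3 morphant arrays lie below them for posterior genes.

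When each group was set against its own wildtype, 0 of 43 Hox genes passed in limma in either comparison (background 1.93% of all probe sets for morphants and 0.165% for mutants). In mutants against siblings the median was -0.19 for anterior genes, with 10 of 11 negative, and -0.08 for posterior genes, with 15 of 20 negative. In morphants against uninjected wildtype the median was -0.05 for anterior and -0.17 for posterior genes, with 16 of 20 posterior genes negative. The difference between these changes was tested for each gene, and 0 of 43 passed in limma (background 0.775% of all probe sets), with 4 at an unadjusted p below 0.05 (12003 of the 75212 probe sets). *hoxb1a* had the lowest adjusted p of this contrast (0.80, SE 0.22, limma adjusted p = 0.134). Siblings and uninjected wildtype differed by -0.16 to 0.28 over the 43 genes, and 0 passed in limma (background 0.0319%), with 1 at an unadjusted p below 0.05 (background 7.06%).

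By cluster, the *hoxba* cluster held both genes that passed as higher in morphants than in mutants, but also *hoxb5a*, which passed as lower. Of its 11 genes, 6 were higher in morphants without overlap, as were 16.4% of all probe sets, and the median was 0.24. Among the 6 were *hoxb7a*, close to the array medians, and *hoxb13a*, below the median of every array. *hoxb3a*, *hoxb5a*, *hoxb6a*, *hoxb8a* and *hoxb9a* of this cluster had negative differences. The 3 genes of the duplicate *hoxbb* cluster had differences of -0.26 to -0.07 between morphants and mutants. In the *hoxda* cluster, 4 of 7 genes were lower in morphants than in controls without overlap, as were 8.59% of all probe sets, and *hoxd13a* was higher without overlap. Among the 4 was *hoxd12a*, whose signals (4.82 to 5.07) lay close to the array medians, and *hoxd13a* was below the median of every array. The median of the cluster was -0.13. Of 9 pairs of genes present in both duplicate copies, 7 had the same sign in both copies in morphants against controls, 6 in mutants against controls and 6 in morphants against mutants.

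Hox proteins bind DNA with cofactors of the TALE class of homeodomain proteins (Pbx, Meis and Pknox). Of the 14 listed cofactors 11 were measured. Against controls, 1 of 11 passed in morphants, where 5.17% of all probe sets and 9.61% of those with 1 symbol did. This was *pknox2*, which was lower (-0.41, limma adjusted p = 0.0284), a call lost with 10 of 23 alternatives. None passed in mutants, with 2 at an unadjusted p below 0.05 in limma, where 13.4% of all probe sets were. Between morphants and mutants, 5 of 11 passed as lower in morphants and 0 as higher, where 6.11% and 7.50% of all probe sets did. In either direction 13.6% of all probe sets and 22.6% of those with 1 symbol passed. Of the 11 differences 8 were negative, with a median of -0.55 against -0.04 over all probe sets. Those that passed were *pbx3b* (-1.11), *pknox1.2* (-0.96), *pbx1a* (-0.74), *meis2a* (-0.58) and *pknox2* (-0.55), with limma adjusted p-values of 0.00374 to 0.0449. The *pknox1.2* call was lost with 11 of 21 alternatives (adjusted p up to 0.261), among them every mutant array left out in turn, and its difference ran from -1.20 without morphant array 3 to -0.55 without morphant array 2. The other 4 calls were kept with every array left out, and *pbx1a* alone passed the 2-group test of the methods. *pbx3b* was the only gene of the list past 2-fold in any of the 3 comparisons.

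Retinoic acid induces anterior Hox genes during axis patterning, and all 25 listed genes of its pathway were measured. In mutants against controls 0 passed in limma, with 2 at an unadjusted p below 0.05, where 13.4% of all probe sets were. In morphants against controls 4 passed in limma as higher and 2 as lower. Of all probe sets 5.17% passed in either direction, and of those with 1 symbol 9.61%. The higher genes were *cyp26c1*, which degrades retinoic acid (0.85), *rdh10b*, which makes retinal from retinol (0.87), *dhrs3b*, which turns retinal back to retinol (0.58), and the binding protein gene *crabp2a* (0.53), with limma adjusted p-values of 0.00614 to 0.0460. The receptor gene *rargb* (-0.56, limma adjusted p = 0.0153) and the binding protein gene *crabp1a* (-0.61, limma adjusted p = 0.0277) were lower. All 6 calls were lost with the 2-group test of the methods and with at least 1 of the wildtypes alone as control. Those of *cyp26c1* and *rdh10b* were kept with every array left out in turn, whereas *dhrs3b* was lost with 14 of 23 alternatives, *crabp2a* with 13, *crabp1a* with 8 and *rargb* with 5. *rdh10b* was among the dim probe sets that the filter left out, so it had 22 alternatives. Between morphants and mutants the same 6 genes passed in the same directions, and *cyp26c1* differed by 1.30 and *crabp1a* by -1.04. These 6 were 24% of the list, where 13.6% of all probe sets and 22.6% of those with 1 symbol passed. Of these calls only that of *crabp1a* passed the 2-group test of the methods, and only that of *crabp2a* was lost with an array left out (morphant array 2 or mutant array 2). *aldh1a2*, the main enzyme of retinoic acid synthesis in the trunk, differed by -0.09 in morphants and by -0.11 in mutants. The median of the list was 0.05, 0.03 and 0.03 in the 3 comparisons.

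**Figure D5:**
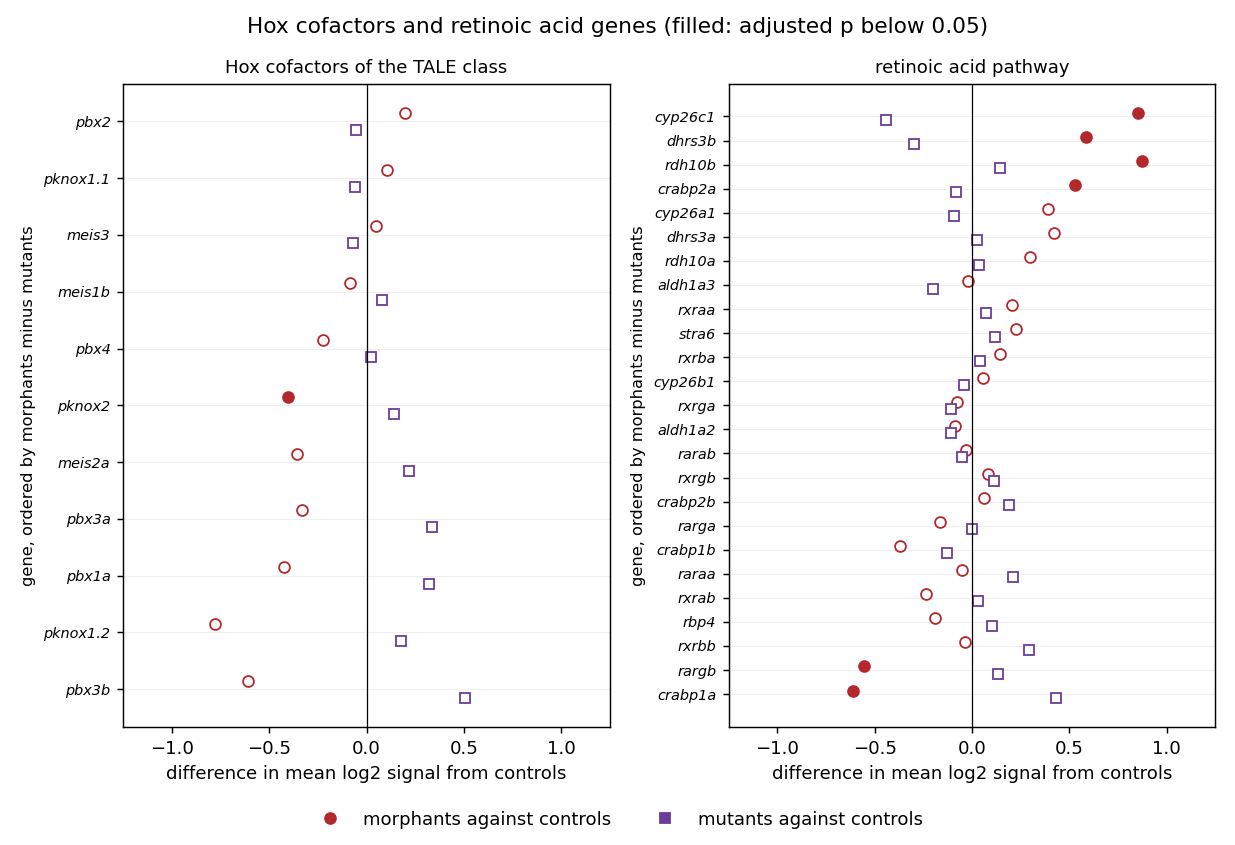
Difference in mean log2 signal from controls (x axis) of 11 TALE cofactor genes and 25 retinoic acid pathway genes (y axis) in morphants (circles) and mutants (squares). Filled symbols have an adjusted p below 0.05 in limma, which 7 genes had in morphants and 0 in mutants.

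Among other regulators, 7 genes of hindbrain and posterior axis patterning were measured of 11 listed. *fgf8a*, a signal of the midbrain-hindbrain boundary, was higher in morphants than in controls (0.41, limma adjusted p = 0.0268), a call lost with 9 of 23 alternatives. Against mutants, *fgf8a*, *fgf3* and *hnf1bb* were higher (0.36, 0.36 and 0.38) and *gbx2* was lower (-0.75), with limma adjusted p-values of 0.0111 to 0.0456. Of 19 measured genes of the Polycomb and Trithorax complexes, which keep Hox genes silent or active, *bmi1a* passed as higher and *phc2b* as lower in morphants against controls, and these calls were lost with 14 and 8 of 23 alternatives. Between morphants and mutants 4 were higher (*bmi1a*, *cbx2*, *eed* and *men1*) and 1 lower (*phc2b*). Of these, *men1* was among the dim probe sets that the filter left out. Of 8 measured genes of the related ParaHox and even-skipped families, *evx1* was lower in morphants than in controls (-0.51, limma adjusted p = 0.0136, lost with 5 of 23 alternatives), and between morphants and mutants *gsx1* was higher (0.68) and *evx2* lower (-0.90). Of the 4, 5 and 2 calls of these lists between morphants and mutants, 3, 3 and 1 were lost with at least 1 array left out, and 3, 5 and 2 with the 2-group test of the methods. The calls between morphants and mutants were 57.1%, 26.3% and 25% of the measured genes. Of all probe sets 13.6% passed, and of those with 1 symbol 22.6%. In morphants against controls these shares were 5.17% and 9.61%. In mutants against controls no gene of these 3 lists passed in limma. At an unadjusted p below 0.05 were 1 of 7, 5 of 19 and 1 of 8 genes, where 13.4% of all probe sets were. The microRNAs of the Hox clusters were not analysed here.

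Levels of markers of other cell types also differed between the groups. The mean log2 signal of 10 neuron markers was 8.13 to 8.53 in morphants, 8.57 to 8.72 in controls and 8.75 to 8.96 in mutants, without overlap between groups. Against controls, 3 of these 10 markers passed as lower in morphants and 0 passed in mutants. Those 3 calls were lost with the 2-group test of the methods. Between morphants and mutants, 6 of the markers were lower in morphants at an adjusted p below 0.05. Of these 6 calls, 5 were lost with the 2-group test of the methods and 3 with at least 1 array left out. For this and the next lists, 13.6% of all probe sets and 22.6% of those with 1 symbol passed between morphants and mutants. In morphants against controls these shares were 5.17% and 9.61%. The mean of 9 markers of dividing cells was 8.62 to 8.65 in morphants and 8.35 to 8.76 in mutants, below the 8.83 to 9.13 of controls. Of the 9, only *cdk1* passed as lower in morphants against controls, a call lost with 15 of 23 alternatives. In mutants against controls 0 of the 9 passed, where 0.338% of all probe sets did. Between morphants and mutants *birc5a* and *plk1* passed as higher, and both calls were lost with the 2-group test of the methods and with at least 1 array left out. Of 8 pectoral fin bud markers, *and1* and *and2* passed as lower and *fgf10a* as higher in morphants against controls. All 3 calls were lost with the 2-group test of the methods, and they were lost with 15, 2 and 6 of 23 alternatives. The mean of 11 skeletal muscle markers was 11.03 to 11.06 in morphants, above the 10.83 to 10.99 of controls and the 10.82 to 10.94 of mutants. Among them *myod1* (0.82) and *myog* (0.56) passed as higher in morphants against controls, calls lost with 2 and 1 of 23 alternatives. The median difference of the 11 was only 0.05, with 7 positive and 4 negative. Without overlap, 2 lay above the controls and 2 below. The mean of 7 neural crest markers overlapped between the groups, and between morphants and mutants *sox10* (-0.35) passed as lower and *snai1b* (0.63) as higher. Both calls were lost with the 2-group test of the methods and with at least 1 array left out. The mean of the 8 motor neuron markers, *isl2a* among them, was 7.02 to 7.22 in morphants, 7.02 to 7.15 in controls and 7.21 to 7.46 in mutants. In morphants against controls *isl2a* alone passed, as higher, and 6 of the 8 differences were negative (median -0.13). Between morphants and mutants *chata*, *isl2b* and *lhx4* passed as lower and *isl2a* as higher. The 3 lower calls were lost with the 2-group test of the methods and with at least 1 array left out. The part of these markers in the Hox values was not tested, and in RNA of whole embryos fewer cells of a type and less RNA per cell cannot be told apart.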

How the data were processed

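RNA of 10 pools of whole embryos was hybridized to 10 GeneChip Zebrafish Gene 1.0 ST arrays with a single label. The deposited values are log2 signals, which the authors made by robust multi-array averaging with the oligo package, while the submitters' processing notes name GCRMA. Both correct the background, equalize the arrays and summarize the probes of each probe set, so a change shared by all genes cannot be seen. Versions are not given in the sources used here. Values were used as deposited for 75212 probe sets (array medians 4.92 to 4.96).

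Group means were fitted with limma 3.58.1 (R 4.3.3) on all 10 arrays, with lmFit followed by eBayes (7 residual and 3.13 prior degrees of freedom). Tests were two-sided, and p-values of a comparison were adjusted over all probe sets by Benjamini-Hochberg. Uninjected wildtype and siblings formed the control group, which follows the methods. A fit with 4 conditions set each group against its own wildtype. The median SD between arrays of a group was 0.129 for the Hox genes and 0.165 for all probe sets, and the number of arrays limits the precision. The script was tested on simulated data.

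The annotation gave 20806 probe sets 1 symbol and 855 several, and 3 of the latter that include a Hox gene were left out. All 43 symbols matched the reference table. Of the members, 4 had a further probe set. Probe positions were not used, and whether probes of related Hox genes share sequence was not examined. Named with each array's value are members at an adjusted p below 0.05 and, in each comparison, the 4 with the smallest unadjusted p. The members, the gene lists, this rule and the alternatives were chosen with earlier results of these data known. As alternatives, the test was replaced by the 2-group test of the methods, by limma on the arrays of 2 groups, with a trended prior, with array weights or with the replicate number as a block. The control was uninjected wildtype or siblings only. Arrays were quantile normalized once more or centred on their median. Dim probe sets, probe sets without exactly 1 symbol or identical copies were left out, or the probe sets of a gene were averaged. Each array was left out in turn. Figures were drawn in Python 3.11.15 with matplotlib 3.10.9.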

Additional observations from a re-analysis of the deposited data

Results flagged for a closer look

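Sibling wildtype array 2 stood apart from the other 3 controls for 2 of 43 Hox genes, where chance sets apart about 1 in 20 groups. Its log2 signal of *hoxd10a* was 6.15 against 6.26 to 6.27 on the others, and that of *hoxc11b* was 7.79 against 7.59 to 7.62.

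For 5 Hox genes, all morphant arrays moved one way and all mutant arrays the other way against the mean of their own wildtype. The share of all probe sets that do so was not counted. Single arrays can still overlap. For *hoxc1a*, mutant array 1 (8.01) lay above sibling array 2 (7.92), and morphant array 2 (8.01) lay below uninjected array 2 (8.13). The change in morphants minus that in mutants was 0.80 for *hoxb1a*, 0.37 for *hoxc1a*, 0.38 for *hoxc5a*, -0.26 for *hoxc8a* and 0.42 for *hoxb10a* on the log2 scale. The difference itself was tested in limma and did not pass for any of them, with adjusted p-values of 0.134 to 0.439.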

How the results depend on the processing

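No Hox gene passed the 2-fold rule in any comparison under any alternative, and none of the 14 results for named Hox genes changed direction. The count at the adjusted p alone in morphants against controls was 1 and became 0 with the 2-group test of the methods and with either wildtype alone, 2 with repeated quantile normalization, a trended prior or array weights, and 3 without dim probe sets (38 Hox genes left) or with 1 symbol only. It was 0 to 1 with an array left out. In mutants against controls it was 0, and 1 with 1 symbol only. Between morphants and mutants it was 6, 1 with the 2-group test of the methods, and 2 to 6 with an array left out (2 without mutant array 3, and 3 without morphant array 1 or 3 or mutant array 2). In that comparison it was 7 with array weights and 4 with limma on the 2 groups alone or the replicate block. It was 5 without dim probe sets or with the probe sets of a gene averaged. The cause was not tested, beyond the smaller number of probe sets or arrays in some settings.

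With uninjected wildtype alone as control, the median of all Hox genes in morphants was -0.083 and that of central genes in mutants 0.13. With repeated quantile normalization the median of all Hox genes between morphants and mutants was -0.079. With an array left out, the median of central genes ran from -0.15 to -0.041 in morphants against controls and from -0.0020 to 0.10 in mutants against controls, with the highest value of both without sibling array 1. That of posterior genes in mutants against controls ran from -0.15 (without mutant array 2) to -0.069, and that of anterior genes between morphants and mutants from 0.16 (without morphant array 2) to 0.26. Scaling moved the median of all probe sets by at most 0.02, and the number of Hox genes with a positive difference in mutants was 13, 16 or 11 by scaling.

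Nothing in the labels says that a replicate number marks a shared clutch or batch. The deviations of same-numbered arrays correlated between morphants and mutants at 0.03, -0.10 and -0.01, and between morphants and siblings at 0.22 and 0.14. Between mutants and siblings they correlated at 0.03 and -0.07, and between morphants and uninjected wildtype at 0.01 and 0.02. These values do not settle whether arrays were paired, and the main fit did not pair them. With the replicate number as a block, the counts at the adjusted p alone were 1, 0 and 4, and over all probe sets the calls at 2-fold went from 615 to 576, from 123 to 53 and from 1894 to 1789.

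Signals of 3 Hox genes were below the median of every array, where a small change may not be measurable. Intervals of the difference lay within 1.5-fold for 39, 40 and 34 of 43 genes in the 3 comparisons, and the other intervals include a difference of 1.5-fold or more.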
